A study of Mus musculus with 6 samples.

Results

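Orosomucoids and lipocalin 2 are secreted carrier proteins of the lipocalin family that the liver releases in inflammation. The 4 genes described here are Orm1, Orm2, Orm3 and Lcn2, chosen by their symbols, among the 19764 genes of the deposited table. Their transcript levels were measured in primary hepatocytes of Bl6/N mice in 6 libraries, 3 named Control and 3 named TNF. All cells were first starved for 16 h in medium that held 5 mM glucose. In both groups they then received 1 µM corticosterone, which activates the glucocorticoid receptor, and 10 µM WY-14643, which activates PPARα, for 8 h. The Control cells received vehicle during these hours and the TNF cells 1 ng/ml of the cytokine TNF. The comparison asks what TNF did to transcript levels in cells given both nuclear receptor ligands after starvation, and no library lacks corticosterone or WY-14643. The labels do not say whether libraries of a group came from separate animals or cultures, so p-values measure the spread between these samples, which may be technical.

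Orosomucoids, also called α1-acid glycoproteins, are abundant plasma proteins that bind drugs, lipids and steroids and rise in plasma during the acute phase response. Glucocorticoids together with cytokines such as IL-1 and IL-6 are their classical inducers, acting through the glucocorticoid receptor and C/EBP proteins. Lipocalin 2 binds bacterial siderophores and so keeps iron from bacteria. It is stored in neutrophil granules and made by hepatocytes and epithelia, where NF-κB, its cofactor IκBζ and C/EBP proteins are known to drive its transcription. TNF is known as a strong activator of NF-κB.

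The coding sequences of the 3 orosomucoid genes are close copies of each other, which bears on how well reads can be assigned to each. In GENCODE mouse release M21, the coding sequence of Orm1 was identical to that of Orm2 at 89.9% of aligned bases and to that of Orm3 at 86.1%, and Orm2 and Orm3 were identical at 88.0%. The stretch of 60 coding bases below is shown because the copies differ in it at 25 positions, given in capitals. It spans bases 138 to 197 of the coding sequence in Orm1 and Orm2 and bases 135 to 194 in Orm3, counted from 1 at the A of the start codon.
Orm1: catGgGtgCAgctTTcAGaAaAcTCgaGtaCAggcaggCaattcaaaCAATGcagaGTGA
Orm2: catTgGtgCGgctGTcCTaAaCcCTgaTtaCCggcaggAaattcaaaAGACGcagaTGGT
Orm3: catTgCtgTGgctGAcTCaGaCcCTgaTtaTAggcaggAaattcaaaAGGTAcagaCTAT
A read from such a stretch tells the copies apart, but other parts of the transcripts are shared. Of the windows of 50 bases along each transcript, 20.4% of those of Orm1 were found letter for letter in Orm2 or Orm3. For Orm2 this share was 22.7%, with matches in Orm1, Orm3 and the predicted gene Gm11212, and for Orm3 it was 3.59%. None of the 866 windows of Lcn2 was found in a transcript of another gene. The windows cover spliced transcripts only, so sharing between introns, which were counted too, was not examined. How the counting treated reads that fit several genes is not given in the sources used here, so the division of reads among the Orm genes is uncertain, and their sum is given beside them. The sum does not cover reads shared with Gm11212. If reads that fit several genes were left out of the counts, the sum lacks them as well. Shared windows were more frequent in Orm1 and Orm2 than in Orm3, so such a loss need not be equal among the 3.

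The promoters are shown because the members are described as targets of C/EBP proteins, glucocorticoids and NF-κB. RefSeq sequences of build GRCm38.p6 were matched for 3 of the 4 members, Lcn2, Orm2 and Orm3. The runs below end before the transcript start, and capitals mark matches to the C/EBP letters TTGCNNAA and to TATAAA, searched on both strands. They lie at chr2:32387798-32387989 on the minus strand (Lcn2), chr4:63362199-63362448 on the plus strand (Orm2) and chr4:63355908-63356157 on the plus strand (Orm3). For Lcn2, 58 further bases up to the RefSeq start are part of its GENCODE transcript and are not shown.
Lcn2: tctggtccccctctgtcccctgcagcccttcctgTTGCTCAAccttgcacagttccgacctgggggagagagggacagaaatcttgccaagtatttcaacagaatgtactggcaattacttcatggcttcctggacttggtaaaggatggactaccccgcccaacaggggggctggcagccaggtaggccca
Orm2: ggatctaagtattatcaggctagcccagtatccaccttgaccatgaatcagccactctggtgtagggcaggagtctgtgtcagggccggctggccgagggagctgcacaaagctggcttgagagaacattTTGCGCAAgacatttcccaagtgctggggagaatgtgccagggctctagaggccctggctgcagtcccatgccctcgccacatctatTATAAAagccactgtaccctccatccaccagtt
Orm3: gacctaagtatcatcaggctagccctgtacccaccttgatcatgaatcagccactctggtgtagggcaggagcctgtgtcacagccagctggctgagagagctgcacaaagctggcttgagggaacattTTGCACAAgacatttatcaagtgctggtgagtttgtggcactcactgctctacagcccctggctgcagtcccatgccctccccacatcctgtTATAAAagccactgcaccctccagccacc
Each of the 3 held 1 match to the C/EBP letters within 250 bases before the RefSeq start, as did 9.57% of the 32817 promoters of the table. The match began 216 bases before the start in Lcn2 (TTGCTCAA), 120 before it in Orm2 (TTGCGCAA) and 121 before it in Orm3 (TTGCACAA). The promoters of Orm2 and Orm3 were identical at 85.5% of aligned bases, and both held TATAAA between 33 and 24 bases before the start, a match found in 12.4% of promoters. AGAACA, 1 arm of the glucocorticoid response element, was matched in Orm2 alone of the 3, next to its C/EBP match, and in 16.1% of all promoters. The NF-κB motif (3.90% of promoters) and the STAT letters TTCNNNGAA (7.02%) were matched in none of the 3. A match or its absence here describes letters in this window, not binding.

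The orosomucoid genes lie side by side on chromosome 4 of build mm10, all on the plus strand, in the order Orm1, Orm3, Orm2. Orm1 (NM_008768) spans 63344566 to 63348162, Orm3 (NM_013623) 63356162 to 63359511 and Orm2 (NM_011016) 63362449 to 63365877. Lcn2 (NM_008491) lies on the minus strand of chromosome 2, from 32384637 to 32387739. Each has 6 exons in GENCODE M21, and introns make up between 71.1% (Lcn2) and 78.5% (Orm1) of the gene. In the deposited table all 4 were counted over their whole span, so intronic reads are part of every value below. Library totals lay between 17612060 and 25114289 reads over genes, and the 4 members together took between 0.162% and 0.194% of them.

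**Figure D1:**
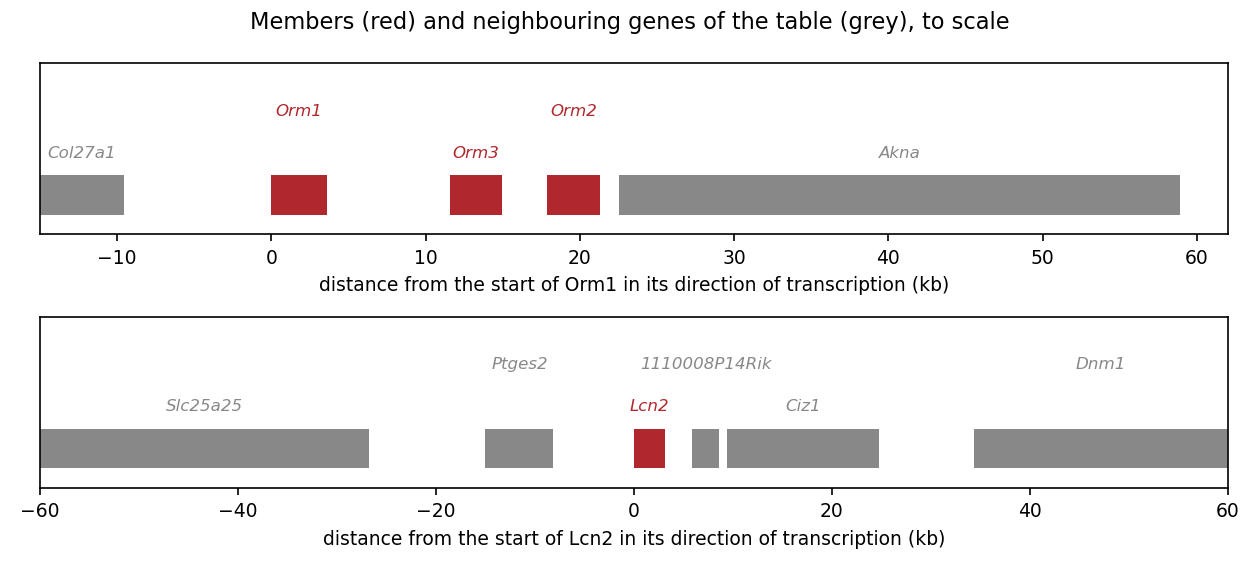
Map to scale of the Orm genes (top) and Lcn2 (bottom), in red, with neighbouring genes of the deposited table in grey. The horizontal axes give the distance in kb from the start of Orm1 and of Lcn2 in the direction of transcription, and the 3 Orm genes stand in a row with Akna 1.245 kb beyond Orm2.

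Transcript levels are in CPM, reads scaled to library size by the authors, and the log2 differences of TNF minus Control are on the scale log2(CPM + 1). The main limma fit was unpaired, with group as the only term. The fit that sets same-numbered libraries against each other (the replicate block) was an alternative to it. A gene is said to have risen or fallen where its Benjamini-Hochberg adjusted p, over all 12293 genes tested, was under 0.05 with the block. By this rule none of the 4 members rose or fell, against 20.6% of all tested genes, and in the unpaired limma fit none of the 4 passed, against 0.431%. All 4 passed the filter on low values, and each had reads in every library.

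Orm1, the most abundant orosomucoid transcript, stood at 532, 618 and 584 CPM in Control 1, 2 and 3 and at 554, 601 and 556 CPM in TNF 1, 2 and 3. All 3 TNF libraries lay inside the range of the Control libraries, and the lowest and highest libraries were both Control. The group means were 578 ± 43.2 CPM and 571 ± 26.8 CPM (SD, n = 3 each). The log2 difference was -0.018 with an SE of 0.086 in the unpaired limma fit (adjusted p = 0.999) and of 0.034 with the replicate block (adjusted p = 0.773). The 95% interval of the blocked fit ran from 0.939-fold to 1.04-fold, and that of the unpaired fit from 0.859-fold to 1.14-fold.

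Orm2, a close copy of Orm1, stood at 58.9, 62.8 and 56.0 CPM in Control 1, 2 and 3 and at 61.7, 59.7 and 57.5 CPM in TNF 1, 2 and 3. Again the 3 TNF libraries fell inside the Control range, which spanned only 1.12-fold. The means were 59.2 ± 3.40 and 59.6 ± 2.09 CPM (SD, n = 3 each). The log2 difference of 0.011 had an SE of 0.072 without the block and of 0.046 with it, at adjusted p-values of 0.999 and 0.906 in limma. The blocked 95% interval ran from 0.941-fold to 1.08-fold.

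Orm3, the least abundant copy, stood at 13.6, 17.4 and 10.7 CPM in Control 1, 2 and 3 and at 17.2, 17.1 and 9.02 CPM in TNF 1, 2 and 3. Libraries with the number 3 were the lowest of each group, and the highest and lowest of the 6 differed 1.93-fold. The means were 13.9 ± 3.39 and 14.4 ± 4.69 CPM (SD, n = 3 each). The log2 difference was 0.025 with an SE of 0.270 unpaired and 0.101 blocked (limma adjusted p = 0.999 and 0.900). Orm3 was the least precisely measured member: its blocked 95% interval, 0.876-fold to 1.18-fold, and its unpaired one, 0.657-fold to 1.58-fold, were the widest of the 4. Between 183 and 421 reads per library lay behind it, for a counting error of 7.39% in the library with the fewest. Its differences within the 3 pairs were 0.32, -0.03 and -0.22 on the log2 scale, an SD of 0.274, so the blocked SE leans on the variance shared across genes.

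The orosomucoid sum keeps reads that moved between the Orm copies, but not any that the counting left out. It was 605, 698 and 651 CPM in Control 1, 2 and 3 and 633, 678 and 622 CPM in TNF 1, 2 and 3. The groups overlapped, at means of 651 ± 46.8 and 645 ± 29.6 CPM (SD, n = 3 each). TNF minus Control was 0.066, -0.042 and -0.064 on the log2 scale in pairs 1, 2 and 3. Orm1 made up 88.8 ± 0.894% of the sum in Control and 88.5 ± 0.899% in TNF. Orm2 made up 9.11 ± 0.573% and 9.26 ± 0.469%, and Orm3 2.13 ± 0.440% and 2.23 ± 0.683%. The division of the sum among the 3 genes thus moved by less than the spread between libraries.

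Lcn2, the siderophore-binding lipocalin, stood at 975, 1315 and 1242 CPM in Control 1, 2 and 3 and at 988, 1326 and 1219 CPM in TNF 1, 2 and 3. The libraries numbered 1 were low and those numbered 2 high in both groups, while each TNF library lay next to the Control library of its own number. The means were 1177 ± 179 and 1178 ± 173 CPM (SD, n = 3 each). The log2 difference was 0.0016 with an SE of 0.159 unpaired (limma adjusted p = 0.999) and of 0.033 with the replicate block (adjusted p = 0.982). The blocked 95% interval, 0.953-fold to 1.05-fold, was narrower than the unpaired one of 0.773-fold to 1.30-fold. Within pairs 1, 2 and 3 the differences were 0.019, 0.013 and -0.027, an SD of 0.025. Between 17650 and 31783 reads per library lay behind these values.

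**Figure D2:**
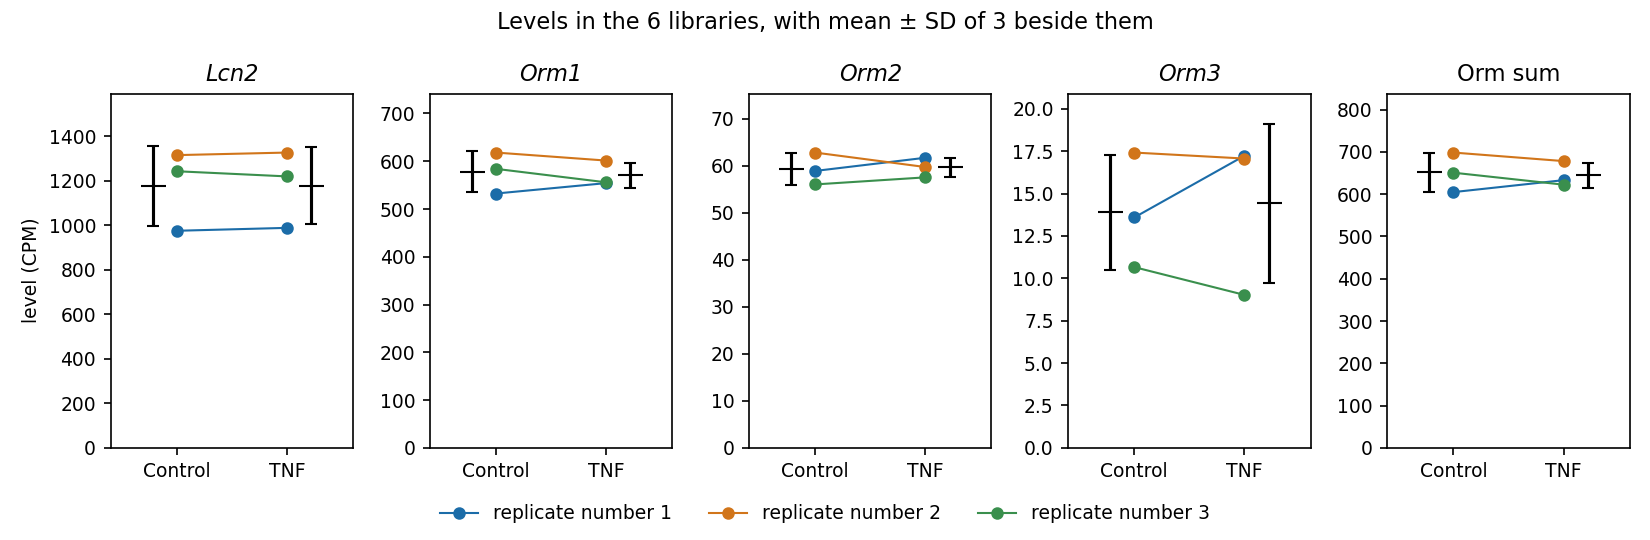
Level in CPM (vertical axes, from 0) of Lcn2, Orm1, Orm2, Orm3 and the orosomucoid sum in each library. Lines join the Control and TNF libraries of the same number and black marks give the group mean ± SD of 3. The groups overlap in all 5 panels, and Lcn2 lies at 975 and 988 CPM in the libraries numbered 1 and at 1219 CPM or more in the other 4.

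In the authors' deposited table, the log2 fold changes were -0.018 for Orm1, 0.0097 for Orm2, 0.040 for Orm3 and 0.0014 for Lcn2. The p-values of the authors' deposited table for them were 0.662, 0.849, 0.673 and 0.959, and its adjusted p-values 0.961, 1, 0.969 and 1.

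Per kb of counted length, Lcn2 was the most abundant member at 379.5 ± 50.7 CPM per kb (SD, n = 6 libraries). It ranked 32 among the 12293 genes tested. Orm1 followed at 159.7 ± 9.01 (rank 91), then Orm2 at 17.3 ± 0.739 (rank 835) and Orm3 at 4.23 ± 1.10 CPM per kb (rank 2971). Over the 6 libraries, the levels of neighbours in this order did not overlap. The level of Lcn2 per kb was 2.35 ± 0.198 times that of Orm1 in Control and 2.39 ± 0.279 times in TNF, and Orm1 was at 9.32 ± 0.663 and 9.13 ± 0.523 times Orm2. Because introns are part of the counted length, these are not levels of mature transcript. The ranks depend on the counted length of each gene as well as on its reads, so they do not order genes by transcript number.

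The members differed in how far they moved between replicate numbers. The mean log2 levels of Lcn2 in the 3 numbers spanned 0.43, and 24.6% of tested genes spanned more. Its largest TNF minus Control difference in any pair was 0.027 in absolute log2, and only 43 of the 2304 tested genes with a mean of at least 100 CPM (1.87%) had a smaller one. The median of those genes was 0.125. Orm1 and Orm2 spanned 0.17 and 0.11 between numbers, below the median of 0.25 for all tested genes, and their largest pair differences were both 0.071. Orm3 spanned 0.75, which 7.72% of tested genes exceeded, and 73.2% of all tested genes had a smaller largest pair difference than its 0.32. At lower counts such differences also hold more counting error.

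**Figure D3:**
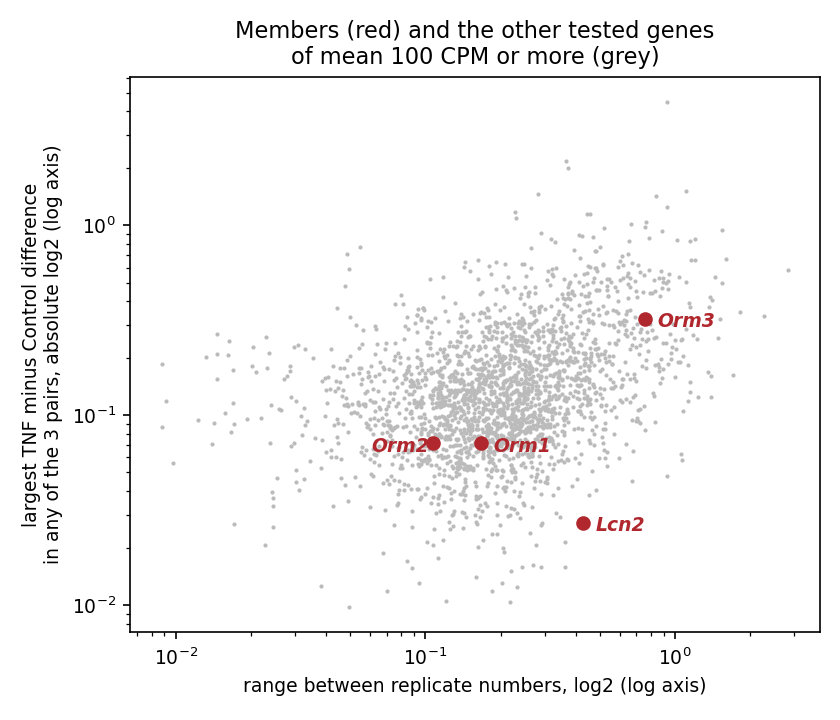
Range of the mean log2 level between the 3 replicate numbers (horizontal, log axis) against the largest absolute TNF minus Control log2 difference in any pair (vertical, log axis). Each grey point is a tested gene with a mean of at least 100 CPM and red points are the members, of which Orm2 and Orm3 lie below that level. Lcn2 sits at 0.43 and 0.027, at the lower edge of the points, and Orm3 at 0.75 and 0.32.

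The members did not follow one common profile over the 6 libraries. As a measure of likeness, the root mean square difference of log2(CPM + 1) between 2 genes was taken after centring each on its own mean, over 8805 tested genes with a mean of at least 10 CPM. Orm1 and Orm2 differed by 0.078, Orm1 and Lcn2 by 0.124, and Orm1 and Orm3 by 0.323. Genes most like Lcn2 were Actg1 (0.025), Tnfrsf12a (0.027) and Dnajb2 (0.032), and those most like Orm1 were Kbtbd2 (0.019), Rpl7 (0.019) and Rpl6 (0.020). Zc3h11a (0.013), Man2a1 (0.014) and Zfp35 (0.016) were nearest to Orm2, and Cdk9 (0.017), Arhgap1 (0.019) and Atp13a1 (0.021) to the orosomucoid sum. Nothing was as near to Orm3, for which Enpp3 (0.112), Zfp612 (0.129) and Rpe (0.138) came closest. Actg1, a cytoskeletal actin, shared the low libraries numbered 1 with Lcn2, at 509, 667 and 660 CPM in Control 1, 2 and 3 and 505, 674 and 639 CPM in TNF 1, 2 and 3. Expressed genes that differ little between libraries are alike by this measure whatever they do.

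Other acute phase genes were split. Of 37 listed and tested, 9 rose, 9 fell and 19 did not pass the blocked test, where 20.6% of all tested genes were called. Their median log2 difference was -0.055, against -0.013 for all tested genes. None passed the unpaired test, where Apcs was nearest at an adjusted p of 0.0509. With library totals or median-of-ratios scaling Apcs passed it (0.0425 with either). Haptoglobin (Hp), which binds free haemoglobin, stood at 1612, 1887 and 1962 CPM in Control 1, 2 and 3 and at 2775, 3548 and 2992 CPM in TNF 1, 2 and 3, with no overlap of the groups. It rose by 0.77 on the log2 scale, with a blocked 95% interval of 0.66 to 0.87 that lies above those of all 4 members (adjusted p = 9.91e-08 with the replicate block and 0.111 without). The pentraxins Crp and Apcs, which bind microbial and damaged cell surfaces, rose by 0.78 and 0.75 (adjusted p = 4.23e-06 and 2.01e-08 in the blocked limma fit). Crp went from 94.9 ± 35.8 to 157 ± 26.0 CPM and Apcs from 69.0 ± 9.34 to 116 ± 9.13 CPM (SD, n = 3 each).

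The haem carrier Hpx rose by 0.45, from 5822 ± 1095 to 7952 ± 1583 CPM (SD, n = 3 each; blocked limma adjusted p = 3.14e-05). Serpina1e, a protease inhibitor with similar copies, was at 4120 ± 485 and 3968 ± 471 CPM (log2 -0.05, adjusted p = 0.434). Sharing of reads between these copies was not examined. The other risers were C3, Cfb, Lbp, Cp and Il1rn, and the genes that fell were Itih3, Serpina3n, Serpina3m, Serpina10, Fga, Fgb, F2, Plg and Lrg1, all named after their values were seen. Chosen in the same way, the 4 serum amyloid A genes, Saa1 to Saa4, did not pass either, with blocked adjusted p-values between 0.192 and 0.878. Without the libraries numbered 1, 7 acute phase genes rose and 11 fell of 36 tested. With those numbered 2 left out, 10 rose and 8 fell.

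Of 26 other lipocalin family genes listed, 12 were tested, of which none rose and 2 fell, where 20.6% of all tested genes were called. Their median log2 difference was -0.057. Rbp4, the plasma carrier of retinol, went from 2033 ± 451 to 1745 ± 389 CPM (SD, n = 3 each), a log2 difference of -0.22 (blocked limma adjusted p = 0.000393). The lipoprotein component Apom went from 92.3 ± 12.8 to 82.9 ± 9.25 CPM, a log2 difference of -0.15 with an adjusted p of 0.0194 that became 0.185 without the libraries numbered 1. The major urinary protein Mup3, from a family of similar genes, was at 3113 ± 590 and 3081 ± 566 CPM (log2 -0.01, adjusted p = 0.872). Sharing of reads within this family was not examined.

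Of 18 transcription regulators known for these genes, all tested, 10 rose, 2 fell and 6 did not pass, where 20.6% of all tested genes were called. Their median log2 difference was 0.13, and 3 of them, Relb, Nfkb2 and Nfkb1, also passed the unpaired test. No other gene named here passed it. Without a filter on low values these 3 did not pass either (unpaired adjusted p = 0.0501, 0.0935 and 0.0501). Nfkb1 also lost its unpaired call, at adjusted p-values of 0.0547 to 0.0739, without Control 2, Control 3, TNF 1 or TNF 2. The NF-κB genes of the list (Nfkb1, Rela, Relb, Nfkb2, Rel, Nfkbiz and Nfkbia) all rose in the blocked fit. They make up most of the risers. Of the other regulators, Cebpg, Atf3 and Egr1 rose, and Cebpd and Hnf4a fell. Rel, Atf3 and Egr1 are named here because they rose. Nfkb2, an NF-κB subunit gene, stood at 62.9, 50.3 and 66.7 CPM in Control 1, 2 and 3 and at 165, 140 and 157 CPM in TNF 1, 2 and 3, with no overlap. It rose by 1.36 and the subunit gene Relb by 1.39 (18.7 ± 0.717 to 50.9 ± 6.45 CPM; SD, n = 3 each). The limma adjusted p was 1.52e-10 for Nfkb2 and 5.78e-09 for Relb with the replicate block, and 0.00991 and 0.00758 without. Nfkb1 rose by 0.69 (blocked adjusted p = 6.00e-08, unpaired 0.0111) and Rela by 0.24 (blocked adjusted p = 0.000271). Nfkbia, the NF-κB inhibitor IκBα, rose by 0.93 (blocked adjusted p = 6.32e-07, unpaired 0.0731). Nfkbiz, which encodes IκBζ, the cofactor known for Lcn2, stood at 8.84, 8.85 and 14.8 CPM in Control 1, 2 and 3 and at 11.8, 15.4 and 16.5 CPM in TNF 1, 2 and 3. These groups overlapped, while the TNF library was higher in all 3 pairs. Nfkbiz rose by 0.42 (blocked adjusted p = 0.0121), a value that became 0.26 with an adjusted p of 0.144 without the libraries numbered 2. Nfkb1, Rela, Nfkbiz and the genes of the next paragraph other than Cebpb and Hnf4a were chosen for their role after their values were seen.

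Of the 4 C/EBP genes in the list, Cebpg rose, Cebpd fell, and Cebpa and Cebpb did not pass. Cebpg went from 161 ± 17.9 to 175 ± 19.8 CPM (SD, n = 3 each; log2 0.12, blocked limma adjusted p = 0.0159), with an adjusted p of 0.0538 and 0.0627 without the libraries numbered 1 and 2. Cebpb was at 207 ± 22.02 and 201 ± 27.4 CPM (SD, n = 3 each; log2 -0.05, blocked limma adjusted p = 0.527) and Cebpa at 170 ± 41.7 and 173 ± 30.4 CPM (log2 0.04, adjusted p = 0.555). Cebpd fell, from 10.8 ± 3.02 to 7.26 ± 0.944 CPM (log2 -0.49, adjusted p = 0.00442), with an adjusted p of 0.062 and a log2 difference of -0.37 without the libraries numbered 2. Stat3, which carries IL-6 signals to acute phase genes, was at 135 ± 6.61 and 125 ± 3.58 CPM (log2 -0.10, adjusted p = 0.0971, or 0.0164 without the libraries numbered 1). The glucocorticoid receptor gene Nr3c1 was at 104 ± 13.6 and 99.1 ± 14.1 CPM (log2 -0.07, adjusted p = 0.235). Hnf4a, a hepatocyte transcription factor, fell by 0.43 on the log2 scale, from 565 ± 54.2 to 418 ± 36.1 CPM (adjusted p = 3.06e-07). Without the libraries numbered 1 the regulator counts were 8 risen and 3 fallen, and without those numbered 2 they were 7 and 1.

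**Figure D4:**
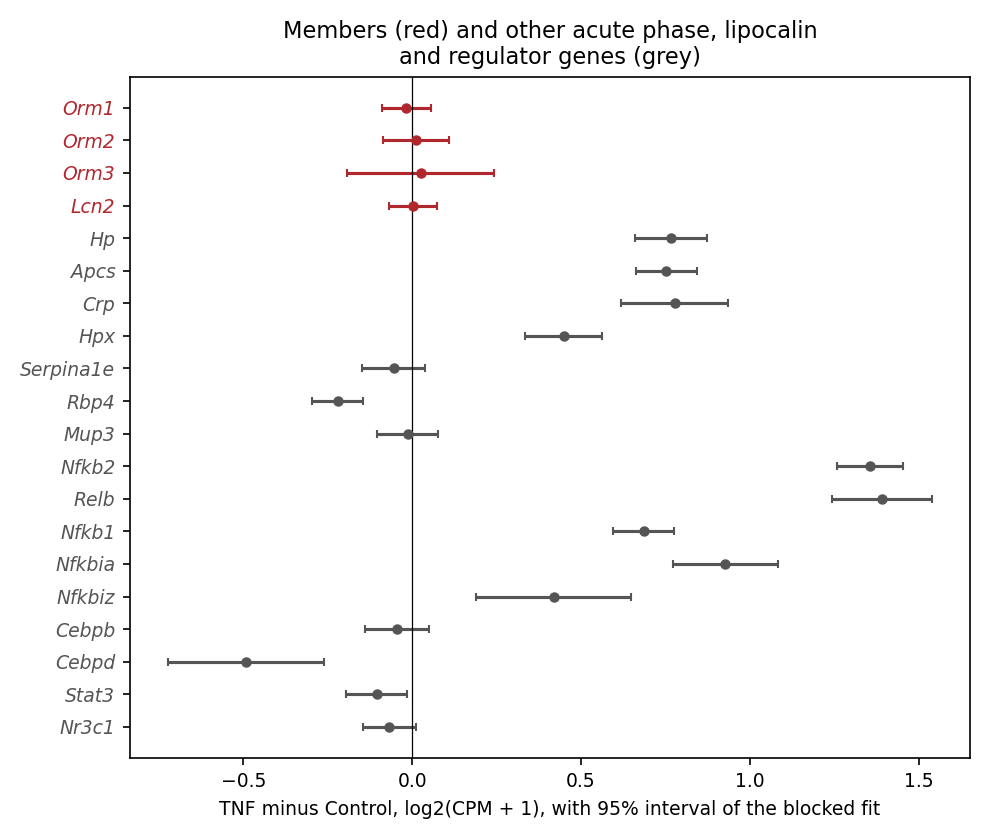
TNF minus Control difference in log2(CPM + 1) (horizontal axis) with the 95% interval of the blocked fit, for the members in red and for 16 other acute phase, lipocalin and regulator genes in grey. The intervals of all 4 members include 0, while those of Hp, Apcs, Crp, Hpx and the NF-κB genes Nfkb2, Relb, Nfkb1, Nfkbia and Nfkbiz lie above 0. Those of Rbp4, Cebpd and Stat3 lie below 0, though Stat3 did not pass after adjustment. The acute phase genes that fell are not drawn.

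Of 20 tested cytokine receptor and signalling genes, 5 rose, 3 fell and 12 did not pass in the blocked limma fit, where 20.6% of all tested genes were called. Their median log2 difference was 0.037. Osmr, the oncostatin M receptor subunit, went from 7.42 ± 2.82 to 15.4 ± 1.76 CPM (SD, n = 3 each; log2 1.02, blocked adjusted p = 3.42e-05). Myd88, an adaptor of IL-1 and Toll-like receptors, rose by 0.37 and Traf2, an adaptor of TNF receptors, by 0.31. The TNF receptor gene Tnfrsf1a was at 88.3 ± 2.74 and 86.7 ± 7.21 CPM (log2 -0.03, adjusted p = 0.707), and Tnfrsf1b rose by 0.28 (adjusted p = 0.00407). Il6ra, the IL-6 receptor, fell from 48.3 ± 2.26 to 40.0 ± 1.90 CPM (log2 -0.27, adjusted p = 0.00121). Both TNF receptors and Il6ra were picked with their values known. Jak1 (log2 0.09, adjusted p = 0.0634) and Ptpn11 (0.04, adjusted p = 0.391), a kinase and a phosphatase of cytokine signalling and the most abundant genes of the list, did not pass. For Jak1 the blocked adjusted p was 0.0471 with library totals, 0.0487 with median-of-ratios scaling and 0.0438 without the libraries numbered 3.

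Of 16 genes listed as LCN2 receptors or iron handling genes, 11 were tested, of which 3 rose and 2 fell, where 20.6% of all tested genes were called. Their median log2 difference was 0.063. The described LCN2 receptors Slc22a17, Lrp2 and Mc4r had 22, 24 and 0 reads over the 6 libraries, and the LCN2 partner Mmp9 had 3, so none of these 4 was tested. A count of 0 allows up to 3 reads, or 0.124 to 0.166 CPM depending on the library. Cp, the iron-oxidising ceruloplasmin, rose by 0.31 (adjusted p = 2.65e-05) and the metal transporter gene Slc39a14 by 0.20 (adjusted p = 0.00364). Tfrc, the transferrin receptor, fell by 0.26 (adjusted p = 0.00179), and by 0.17 without the libraries numbered 3 (adjusted p = 0.0113). Fth1, the ferritin heavy chain, was at 4456 ± 339 and 4896 ± 322 CPM (SD, n = 3 each; log2 0.14), and its adjusted p of 0.0435 was lost with median-of-ratios scaling (0.0607) and without the libraries of any 1 number. The iron carrier gene Trf was at 9951 ± 746 and 10665 ± 418 CPM (log2 0.10, adjusted p = 0.244, or 0.0179 with limma-voom and the replicate block).

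Since neutrophils store LCN2 protein, markers of other cells were set beside the members. Of 13 neutrophil markers listed, 11 were in the table and none was tested. Of these 11, Ly6g, Mpo, Ngp, Retnlg and Mmp8 had no reads, and the summed level of the list was 0.083 to 0.243 CPM in Control and 0.049 to 0.191 CPM in TNF. The 15 hepatocyte markers, 9 of which fell and none of which rose, summed to between 39024 and 59841 CPM in Control and between 36077 and 52297 CPM in TNF. Of all 12293 tested genes, 1156 rose and 1374 fell in the blocked fit. Macrophage markers summed to between 183 and 309 CPM in Control and 217 and 354 CPM in TNF, with Cd68 and Cd14 the only 2 of 14 tested. These 2 made up nearly all of that sum. Each of the other macrophage markers had between 1 (Clec4f and Timd4) and 32 (Csf1r) reads over the 6 libraries. Cd14 rose from 50.3 ± 22.9 to 84.3 ± 31.2 CPM (SD, n = 3 each; log2 0.76, blocked limma adjusted p = 7.86e-08) and Cd68 was at 180 ± 45.4 and 179 ± 46.9 CPM. Endothelial markers (7 of 9 tested, 1 fell) summed to 85.2 to 161 CPM in Control and 80.4 to 153 CPM in TNF, and stellate cell markers (4 of 8 tested, 1 fell) to 18.7 to 68.5 and 20.2 to 46.4 CPM. Cholangiocyte markers (4 of 7 tested, 1 rose and 1 fell) summed to 37.9 to 46.7 and 42.2 to 63.9 CPM, and lymphocyte markers, none tested, to 0.207 to 0.773 and 0.144 to 0.444 CPM. Reln was the most abundant stellate marker, at 45.3 ± 26.2 and 31.2 ± 12.7 CPM (SD, n = 3 each). Sox9 was the most abundant cholangiocyte marker, at 22.7 ± 1.32 and 35.0 ± 7.40 CPM, while Krt19 and Krt7 had 23 and 1 reads over the 6 libraries. The part of these cells in the members' levels was not tested. In these bulk libraries, fewer cells of a type and less RNA per cell cannot be told apart.

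Of the 12 nearest genes, 11 were tested, and 3 of these passed the blocked test, where 20.6% of all tested genes did. Next to Orm2, on the higher side, lies Akna, which encodes an AT-hook protein. It was at 0.470 ± 0.263 and 1.05 ± 0.145 CPM (SD, n = 3 each) from 92 reads in all, with a blocked limma adjusted p of 0.0242 that became 0.102 and 0.147 without the libraries numbered 2 and 3. Whrn and Atp6v1g1 beyond it had adjusted p-values of 0.978 and 0.0604. On the lower side of Orm1, Col27a1 was at 6.90 ± 2.15 and 8.19 ± 3.49 CPM (adjusted p = 0.318), and Kif12 had no reads. Ambp, the lipocalin gene of α1-microglobulin 190 kb from Orm1, was at 1906 ± 205 and 1803 ± 187 CPM (adjusted p = 0.139).

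Beside Lcn2, 1110008P14Rik, Ciz1 and Dnm1 on the lower side had blocked limma adjusted p-values of 0.927, 0.978 and 0.348. On the higher side, Ptges2 was at 34.9 ± 3.86 and 31.5 ± 3.82 CPM (adjusted p = 0.0892). Slc25a25, a mitochondrial carrier gene 26.7 kb away, rose by 0.24, from 49.5 ± 11.7 to 58.0 ± 9.60 CPM (SD, n = 3 each; adjusted p = 0.00321). Naif1, which overlaps Slc25a25 so that reads of the 2 may be mixed, was at 4.20 ± 0.630 and 5.83 ± 1.59 CPM (log2 0.37). Its adjusted p of 0.0409 became 0.314 without the libraries numbered 2.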

How the data were processed

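Members and gene lists were chosen with earlier results of these data known. Libraries of polyA RNA were sequenced in pairs of reads, per the labels' protocols, and per the submitters' processing notes STAR 2.6.1a aligned them to mm10. Which program counted the reads, on which annotation and with which strand setting, is not given in the sources used here. Deposited values are log2 CPM with a floor of -3.35 shared by all libraries. With the floor subtracted, 100.0% of 118584 values were whole reads (relative tolerance 1e-06). The authors' deposited table also gave log2 fold changes, a likelihood ratio score, p-values and adjusted p-values. Its bases of counted length served for levels per kb.

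Because the unit is log2, limma 3.58.1 (R 4.3.3) was run on log2(CPM + 1) with a trended prior, two-sided, group as the only term, and Benjamini-Hochberg adjustment at 0.05. This scale understates changes of low genes. The filter asked for 15 reads in all and, at the median library size, for 10 reads in at least 3 libraries, which left 12293 genes. Same-numbered Control and TNF libraries shared their deviations (correlations 0.784, 0.789 and 0.793 across genes; -0.472 to -0.335 for other pairs), so by this check the numbers in the titles pair the samples. The fit with the replicate block called 2530 genes (1156 higher, 1374 lower) and the unpaired fit 53 (44 higher, 9 lower). No 2 libraries were duplicates. Alternatives were other scalings, filters and pseudocounts, the deposited log2 values, limma-voom, and leaving out libraries. The fits were tested on simulated data.

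Besides the members, genes were named by these rules: in each of 5 lists, up to 3 with the largest called change and the 2 most abundant, the 3 nearest neighbours on each side, and the 3 genes of most similar pattern. Sequences were aligned with Biopython 1.88. Limits for a count of 0 (3 reads) cover counting error only.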

Additional observations from a re-analysis of the deposited data

How the results depend on the processing

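None of the 4 members passed the test under any of the 21 alternatives, whose lowest adjusted p-values were 0.396 for Orm3, 0.460 for Orm1, 0.620 for Orm2 and 0.864 for Lcn2. Their log2 differences are near 0, so their signs turned when libraries were left out: the values ranged from -0.076 to 0.032 for Orm1, -0.028 to 0.053 for Orm2, -0.14 to 0.31 for Orm3 and -0.13 to 0.12 for Lcn2, and from -0.066 to 0.038 for the orosomucoid sum. With the replicate block and a pair of same-numbered libraries left out, or with another scaling or limma-voom, the blocked range was -0.055 to 0.0092 for Orm1, -0.017 to 0.052 for Orm2 (-0.0027 without both libraries numbered 3), -0.12 to 0.15 for Orm3 and -0.0073 to 0.016 for Lcn2 (-0.0039 without both numbered 2). Signs also turned, with libraries left out, for Serpina1e (-0.14 to 0.040), Mup3 (-0.16 to 0.13, with 0.023 blocked without the libraries numbered 2), Cebpb (-0.15 to 0.035, with 0.026 without Control 2), Cebpa (-0.11 to 0.22), Ptpn11 (-0.030 to 0.11), Nr3c1 (-0.18 to 0.037), Cd68 (-0.21 to 0.18, with 0.019 blocked without the libraries numbered 2, and 0.0014 with median-of-ratios scaling, blocked or not) and Tnfrsf1a (-0.095 to 0.018, with 0.0094 blocked without the libraries numbered 1).

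The count of genes called depended on the fit. The unpaired 53 became 5 without a filter on low values (limma, with 1376 genes at an unadjusted p under 0.05), 2530 with the replicate block, 2520 with the block and limma-voom, 2492 with the block and library totals, and 2572 with the block and median-of-ratios scaling. Leaving out 1 library gave between 9 (without TNF 2) and 30 (without Control 1) in the unpaired fit. Leaving out a pair with the block gave 2309, 1792 and 2158 without the libraries numbered 1, 2 and 3. The cause was not tested. Orm3 has the fewest reads. At this depth and number of libraries, a member's change within the interval of a fit cannot be told from 0 by that fit. The intervals are not adjusted for the number of genes tested, so a change somewhat beyond them could also have gone uncalled.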
